A study of Mus musculus with 6 samples.

Results

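The genes described here encode the SNAREs, the synaptotagmins, the syntaxin-binding proteins and the subunits of the exocyst, as transcribed in murine lung adenocarcinoma (LUAD) cells with ectopic ZEB1 (393P_ZEB1) or the empty vector (393P_vector). They were chosen by symbol alone: the numbered Stx, Vamp, Syt, Stxbp and Exoc genes, Snap23, Snap25, Snap29 and Snap47, and Sytl1 to Sytl5. This gave 63 of the 24214 features in the tables, namely 15 syntaxins, 7 VAMPs, 4 genes of the SNAP-25 family, 5 syntaxin-binding proteins, 17 synaptotagmins, 5 synaptotagmin-like proteins and 10 exocyst genes. The parent line is an epithelial murine LUAD line of the C57BL/6 strain, which the labels call KP lung cancer cells, and ZEB1 is a transcription factor that activates the epithelial-to-mesenchymal transition. Both groups were transfectants grown in the same medium, 3 samples of 393P_vector with an empty vector and 3 of 393P_ZEB1 with a ZEB1 expression vector, and by the study's methods its transfectants were stable and drug-selected. The labels do not say whether the samples were separate cultures or whether a line was 1 clone, so p-values measure the spread between these samples, which may be technical, and a difference between the lines cannot be told apart from an effect of ZEB1.

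A vesicle fuses with its target membrane when an R-SNARE on the vesicle, usually a VAMP, zips together with a syntaxin and a SNAP-25 relative on the target. The exocyst tethers vesicles to the plasma membrane before this happens, syntaxin-binding proteins of the Munc18 type hold the syntaxin ready, and many synaptotagmins bind calcium and lipid and set when fusion occurs. Neurons and endocrine cells use specialised members such as Snap25 and Syt1, whereas epithelial cells rely on broadly expressed relatives and on Stx3, the syntaxin of the apical membrane.

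Reads on each gene were counted, and total counts were between 54442450 and 79158012 per sample. CPM below is the count scaled to the normalised size of the library, 3 counts corresponded to between 0.0361 and 0.0561 CPM, and levels of different genes are compared only as CPM per kb of exon. Log2 fold changes are of 393P_ZEB1 over 393P_vector with their standard errors (SE), and p-values are from edgeR's quasi-likelihood test, adjusted over the 13892 genes tested, with a threshold of 0.05. With 3 samples a group, an exact permutation test cannot give a p below 0.1, which it reaches whenever the groups do not overlap. The mRNA of Zeb1 itself was 21.2, 22.0 and 21.4 CPM in 393P_vector and 54.9, 48.9 and 51.3 CPM in 393P_ZEB1, a log2 fold change of 1.26 ± 0.10 (adjusted p = 6.06e-05). The species of the ZEB1 cDNA is not given, so how far these counts on mouse Zeb1 come from the vector is not known. 393P_vector replicate 3 stood apart: 5.0% and 5.51% of tested genes differed at least 2-fold from the other 393P_vector samples, against 0.0648% between those. A small constant was added to each CPM for this count, which damps differences at low levels. Among the genes described here such differences numbered 0 and 1. On plain CPM, genes at low levels also differed more than 2-fold, such as Sytl1 (0.954 and 1.16 against 0.409) and Exoc3l (1.45 and 1.68 against 0.530). Of the epithelial markers, Krt8, Krt18 and Krt19 were at 579.6 CPM or more in every sample, with Krt8 and Krt18 lower in 393P_ZEB1 (log2 fold changes of -0.61 and -0.77), while Cdh1 went from a mean of 162 to 9.51 CPM (-4.09) and Epcam from 122 to 1.31 CPM (-6.54). The mesenchymal markers Vim, Fn1 and Zeb2 were already at means of 5508, 2417 and 85.5 CPM in 393P_vector. Their log2 fold changes were 0.41, 0.56 and 0.80, and that of Cdh2, from a mean of 46.8 to 193 CPM, was 2.04. The lung markers Nkx2-1 and Sftpc did not exceed 0.0561 CPM in any, and 8 of 12 markers of fibroblasts, leukocytes, endothelium, neurons and neuroendocrine cells were below 1 CPM in every sample. Their summed level was 6.60 to 9.06 CPM in 393P_vector and 29.4 to 30.3 CPM in 393P_ZEB1, most of the latter from Insm1, a neuroendocrine transcription factor, at 26.3 to 27.5 CPM. Chga, Syp and Rbfox3 stayed below 1 CPM, and the part of any other cell type in the results was not tested.

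The study asked whether ZEB1 relieves trafficking genes of control by microRNAs, so the letters that bear on this are shown first. The miR-200 family falls into 2 seed groups, and the mature sequences of a member of each are given with the seed, bases 2 to 8, in capitals (RefSeq, GRCm38.p6).
mmu-miR-200b-3p: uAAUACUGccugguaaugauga
mmu-miR-200a-3p: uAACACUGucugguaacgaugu
Seed matches were sought downstream of the stop codon in 1 transcript a gene, that with the longest coding sequence in GENCODE M21. The transcript so chosen for Syt7, a higher gene, had no 3′ UTR, so Syt7 was not searched. The stretches below are read on the strand of the gene in GRCm38, with the seed match in capitals. They belong to the transcript that rose most (Snap25), to a transcript that rose at a high level (Syt12) and to a transcript that fell (Stxbp5). Stxbp5 also held 3 matches to the seed of miR-200a that are not shown. Snap25 held both of its matches at chr2:136781523-136781547 and chr2:136781839-136781863 on the plus strand.
Snap25 first match: ctcaatacaCAGTATTgttcttgta
Snap25 second match: acgcatgctCAGTATTgggacactg
Syt12 (chr19:4446826-4446850, minus strand): cacagacacCAGTGTTggctcgcgt
Stxbp5 (chr10:9756517-9756541, minus strand): ctatgaattCAGTATTgtctccaga
A match was to CAGTATT, the site of miR-200b, miR-200c and miR-429, or to CAGTGTT, the site of miR-200a and miR-141. Of the 63 genes, 59 had a 3′ UTR to search, and 28 (47.5%) held a match on the strand of the gene. Among all tested genes with a 3′ UTR, 28.0% of 11874 did, and lengths of the UTRs were not matched. A match was present in 10 of 16 genes that were higher in 393P_ZEB1, in 5 of 11 that were lower, in 9 of 23 that did not pass the test and in 4 of 9 that were not tested. A CAGTATT match was held by 3 of the 16 higher and 5 of the 11 lower genes, beside 14.5% of all tested genes, and a CAGTGTT match by 8 and 1 of them, beside 18.9%, and some genes, such as Syt14 and Stxbp5, held both. Within the SNAP-25 family, Snap23, whose mRNA did not pass the test, also held a CAGTATT match. A match is a run of letters and not a tested site.

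ZEB1 also binds promoters directly, at E-boxes with the letters CAGGTG or CAGGTA. Windows of 250 bases before to 50 after the start site were available for 49 of the 63 genes, and 18 of these (36.7%) held CAGGTG or CAGGTA on either strand, against 28.4% of 10709 tested genes and 29.5% of all 32851 windows. They were held by 4 of 9 higher genes (Exoc2, Exoc7, Snap47 and Stx2) and 4 of 10 lower genes (Exoc4, Stxbp2, Syt8 and Syt9). They were also held by 6 of 21 genes that did not pass the test and 4 of 9 that were not tested. The pair of synaptotagmins that fell most, Syt8 and Syt9, both held them, and these stretches are shown on the plus strand, which is also that of the genes, with the E-box in capitals (TACCTG is CAGGTA on the other strand).
Syt8 (chr7:142434807-142434830): gagtccagaTACCTGctccaggac
Syt8 (chr7:142434988-142435011): tgtgggcatCAGGTGctgcctgag
Syt8 (chr7:142436709-142436732): tggtccttcCAGGTGcccaccaga
Syt9 (chr7:107370622-107370645): ccgggtcccTACCTGgcgcgcctg
The windows of Stx3 and Stx11, which fell more than 4-fold, held neither sequence. Over the 7 genes changed at least 2-fold that had a window, 2 held an E-box, and these 2 are Syt8 and Syt9. Among the genes that rose at least 2-fold, only Sytl1 and Syt14 had a window, while Snap25, Syt4, Syt7, Syt12 and Syt13 had none. Of the genes that fell at least 2-fold, Syt17 alone had no window. The genes that rose and those that fell can therefore not be compared here. Syt8 was searched in 3 windows.

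As a whole, the genes changed in both directions, Snap25 and 6 others at least 2-fold upward and Syt8 and 5 others at least 2-fold downward. Of the 63 genes, 52 had enough counts to be tested and 28 of them (53.8%) passed the threshold, 17 higher and 11 lower in 393P_ZEB1. Among all genes tested, 37.6% passed, 18.3% higher and 19.3% lower. Changes of at least 2-fold were called in 13 of the 52 genes, 7 higher and 6 lower, where 17.1% of all genes were so called, 7.93% higher and 9.19% lower. Snap25 had enough counts to be tested only through 393P_ZEB1, and Syt8 and Syt9 only through 393P_vector. The calls of these genes are thus not independent of the filter on low counts. The groups did not overlap in 38 of the 52 genes, 21 above and 17 below, beside 52.8% of all genes, 26.3% above and 26.5% below. The median log2 fold change was 0.12, and that of all tested genes -0.02. The median over all tested genes also varied by chromosome, from -0.43 on chromosome 17 to 0.64 on chromosome 18, and it is given below beside the genes whose call changed with it. With these medians as offset Zeb1, itself on chromosome 18, gave a log2 fold change of 0.63 in place of 1.26. Leaving out 1 sample at a time ended the call of 8 genes under at least 1 removal, Exoc3, Exoc7, Stx12, Stx1a, Stx5a, Stxbp2, Vamp2 and Vamp5, and of none that changed at least 2-fold. Together the 63 genes took 0.201% to 0.208% of counts in 393P_vector and 0.226% to 0.235% in 393P_ZEB1. The plot of log2 fold changes by family shows that the changes of at least 2-fold lay in the synaptotagmins, Sytl1, Snap25, Stx3, Stx11 and Stxbp5.

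**Figure D1:**
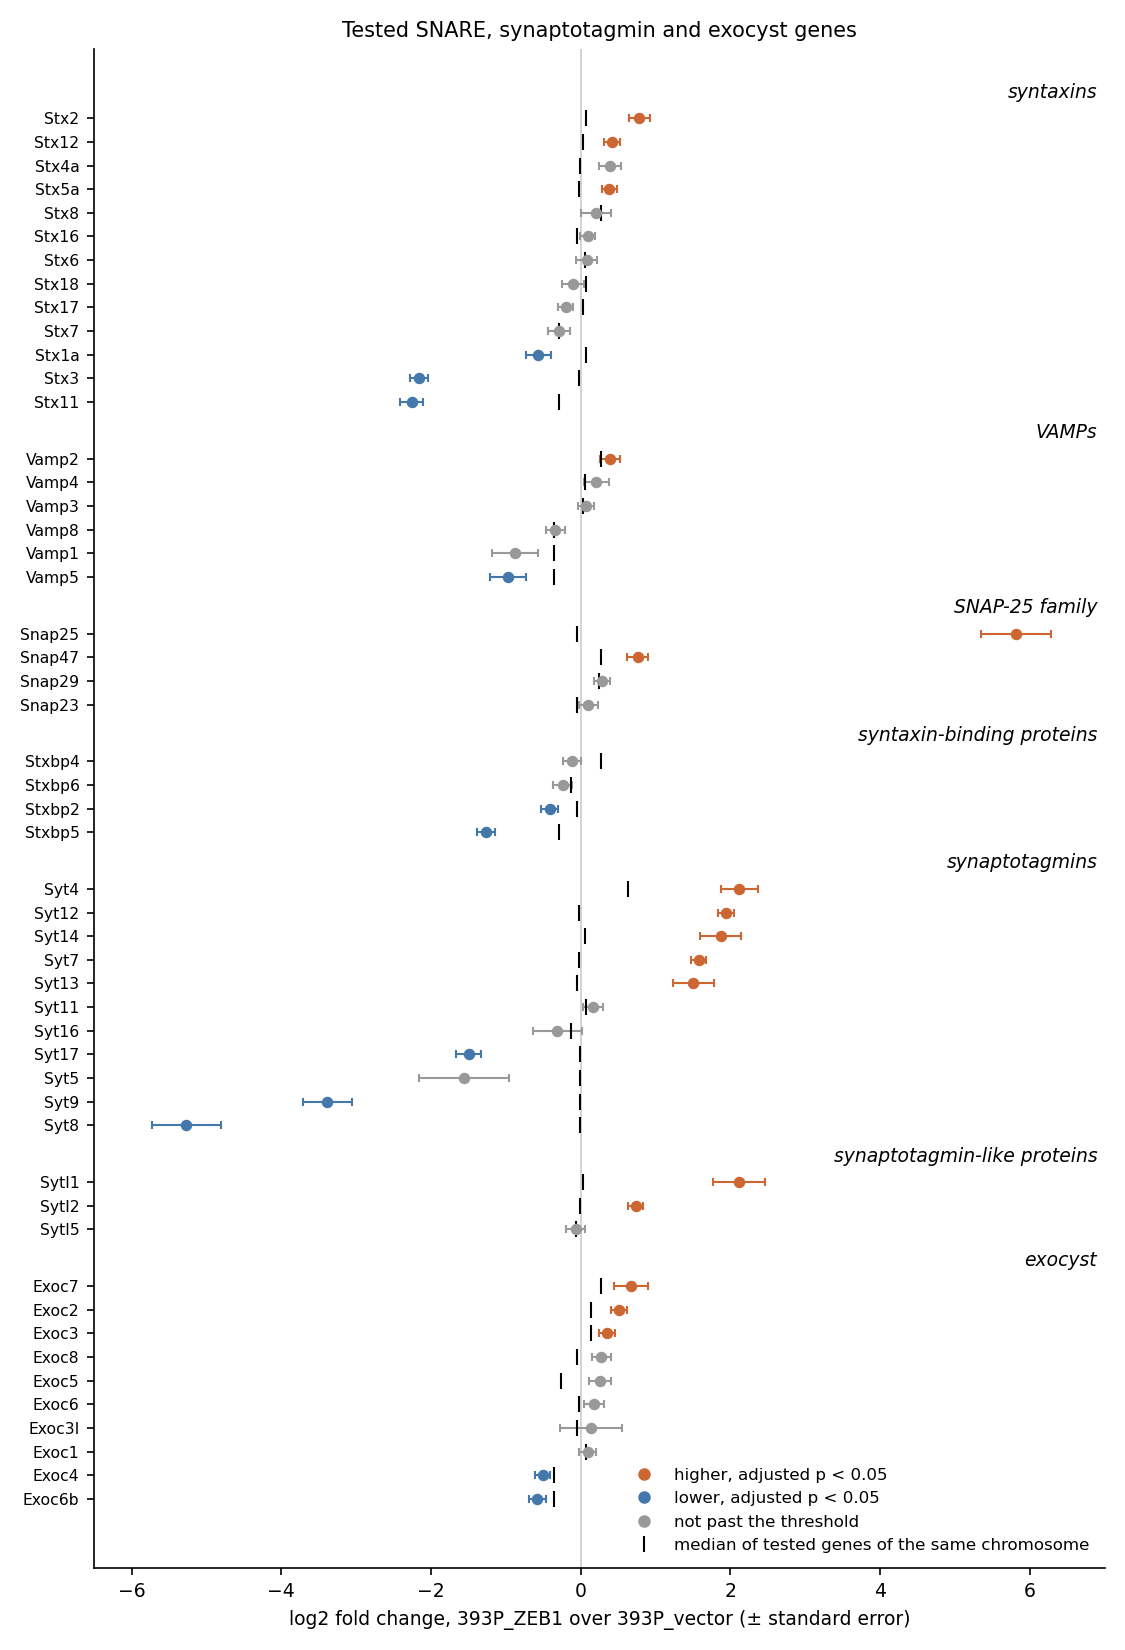
Log2 fold change of 393P_ZEB1 over 393P_vector (x axis, points with standard errors) for 51 of the 52 tested genes, grouped by family. Orange points passed the threshold upward (16 genes shown) and blue points downward (11 genes), grey points did not pass, and each black tick is the median of all tested genes on the same chromosome. Snap25 at 5.82 and Syt8 at -5.27 lie farthest from 0.

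Among the target-membrane SNAREs of the SNAP-25 family, Snap25 and Snap47 rose and Snap23 and Snap29 did not pass the test. Snap25 (chr2:136713450-136782428), the neuronal member that pairs with Stx1a and Vamp2, gave 0.0883, 0.0340 and 0.0241 CPM in 393P_vector, or 5, 2 and 2 reads, and 2.95, 3.38 and 1.79 CPM in 393P_ZEB1. It was thus at or near the detection floor in every 393P_vector sample and clearly counted in every 393P_ZEB1 sample. Its log2 fold change was 5.82 ± 0.47 (adjusted p = 5.63e-05), and the ratio of summed normalised counts was 59.0 with an exact 95% interval of 30.8 to 129.9 that covers counting error alone. Snap25 and Syt4 are on a list of trafficking regulators that the study drew up from these samples, so their direction is not independent evidence.

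The broadly expressed relatives were far more abundant. Snap23, which replaces Snap25 outside neurons, was 58.2, 54.7 and 59.0 CPM in 393P_vector and 71.6, 55.5 and 57.4 CPM in 393P_ZEB1, with overlapping groups and a log2 fold change of 0.10 ± 0.13 (adjusted p = 0.565). Snap47 (chr11:59407150-59449956), a relative found on inner membranes, was 81.7, 80.0 and 58.6 CPM and then 129.8, 119 and 124 CPM, and rose by 0.76 ± 0.14 (adjusted p = 0.00467), where the median of chromosome 11 was 0.27. The annotation places Jmjd4 antisense to 11.6% of its exon bases, and a strand setting of the counting is not given in the sources used here. Snap29, which works in endosomal and autophagosomal fusion, did not pass, at 39.2 ± 3.0 and 47.9 ± 2.3 CPM (SD, n = 3). In CPM per kb, Snap25 made up 0.0290% ± 0.0187 of the summed level of the 4 genes in 393P_vector and 1.16% ± 0.37 in 393P_ZEB1 (SD, n = 3), whereas Snap47 made up 51.5% and 61.3% and Snap23 33.6% and 24.97%.

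Syntaxins of the cell surface shifted against each other. Stx3 and Stx11 fell more than 4-fold and Stx1a fell 1.48-fold, while Stx2 rose 1.72-fold, and the summed level of these with Stx4a was 53.6 ± 4.8 CPM per kb in 393P_vector and 55.6 ± 4.9 in 393P_ZEB1. Stx3 (chr19:11775118-11819403), which directs fusion at the apical membrane of epithelia, was 34.1, 39.1 and 34.8 CPM in 393P_vector and 8.36, 7.69 and 8.14 CPM in 393P_ZEB1. The 2 groups lay far apart, with a log2 fold change of -2.16 ± 0.12 (adjusted p = 7.83e-06). Stx11 (chr10:12939983-12964259), best known from granule release by cytotoxic lymphocytes, was 17.6, 19.5 and 20.1 CPM and then 3.83, 4.55 and 3.55 CPM. This was a log2 fold change of -2.26 ± 0.15 (adjusted p = 1.96e-05), against a median of -0.30 for chromosome 10. Of the leukocyte markers, Ptprc did not exceed 0.373 CPM in any sample, and the macrophage marker Cd68 was 1.93, 1.11 and 3.08 CPM in 393P_vector and 1.05, 0.954 and 1.08 CPM in 393P_ZEB1 (adjusted p = 0.0639), whose part in the result was not tested. Stx1a, the neuronal syntaxin, was 11.96, 14.8 and 11.3 CPM in 393P_vector and 7.94, 7.76 and 9.99 CPM in 393P_ZEB1. All 3 values of 393P_ZEB1 were lower, with a log2 fold change of -0.57 ± 0.17 (adjusted p = 0.0331).

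Stx2 (chr5:128984561-129008564), also called epimorphin, was 45.6, 47.4 and 34.4 CPM in 393P_vector and 77.2, 68.7 and 73.4 CPM in 393P_ZEB1, and it rose by 0.78 ± 0.14 (adjusted p = 0.00414). Stx4a, the basolateral and ubiquitous surface syntaxin, was 24.6, 25.1 and 21.5 CPM and then 31.5, 26.1 and 35.8 CPM. Its groups did not overlap, but the log2 fold change of 0.39 ± 0.15 did not pass (adjusted p = 0.0711). Of the summed level of the 5 surface syntaxins, Stx3 made up 12.7% to 14.4% in 393P_vector and 2.75% to 3.09% in 393P_ZEB1, and Stx11 13.6% to 17.3% and 2.49% to 3.79%. Stx2 made up 24.3% to 29.01% and 42.2% to 46.98%. In 393P_vector the 5 levels per kb were in the order Stx4a, Stx2, Stx11, Stx3 and Stx1a at 17.6, 14.6, 7.96, 7.25 and 6.16, and in 393P_ZEB1 Stx2 at 25.1 and Stx4a at 23.1 stood above Stx1a at 4.16, with Stx11 at 1.66 and Stx3 at 1.62 last. In 393P_vector the samples of Stx4a and Stx2 overlapped, as did those of Stx11 and Stx3 and of Stx3 and Stx1a, and in 393P_ZEB1 those of Stx2 and Stx4a and of Stx11 and Stx3.

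**Figure D2:**
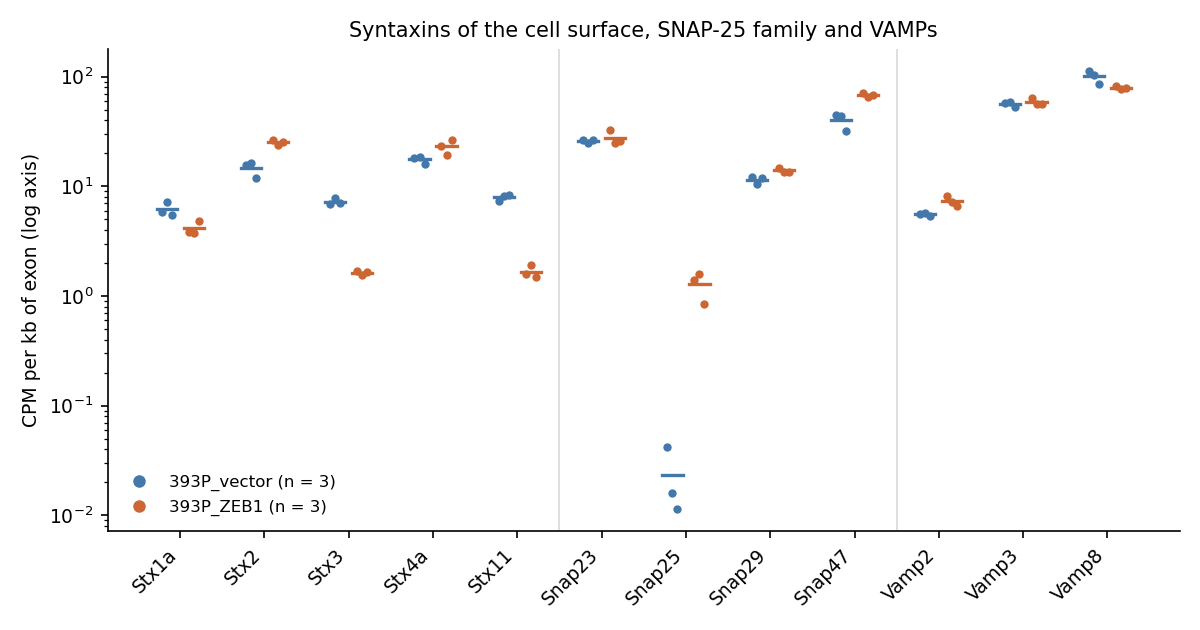
Levels in CPM per kb of exon (log y axis) of surface syntaxins, the SNAP-25 family and 3 VAMPs in each sample of 393P_vector (blue, n = 3) and 393P_ZEB1 (orange, n = 3), with bars at the means. Stx3 fell from a mean of 7.25 to 1.62 and Snap25 rose from 0.0231 to 1.28, while Snap23 at 25.9 and 27.8 and Vamp3 at 56.3 and 59.0 lay close together.

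Syntaxins of inner membranes changed little. Stx12, which serves recycling endosomes, rose by 0.42 ± 0.11 (adjusted p = 0.0183). Stx5a, the syntaxin of traffic between the endoplasmic reticulum and the Golgi and the most abundant syntaxin per kb over all 6 samples, was 62.7, 66.0 and 57.2 CPM in 393P_vector and 80.0, 77.9 and 84.5 CPM in 393P_ZEB1, and rose by 0.38 ± 0.10 (adjusted p = 0.0215). Stx6, Stx7, Stx8, Stx16, Stx17 and Stx18 did not pass, with log2 fold changes between -0.29 and 0.21. For Stx18, 32.3% of the exon bases lie opposite other genes. Stx19 was not tested, at no more than 0.0561 CPM in any sample.

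Of the 6 VAMPs tested, Vamp2 rose and Vamp5 fell, where 37.6% of all tested genes passed. Vamp2, the vesicle SNARE of synapses and of regulated secretion, was 12.1, 12.3 and 11.6 CPM in 393P_vector and 17.5, 15.5 and 14.3 CPM in 393P_ZEB1, and rose by 0.39 ± 0.13 (adjusted p = 0.0459). Vamp5, known from muscle, fell by 0.97 on the log2 scale, with an SE of 0.24 (adjusted p = 0.0153). With the median of the chromosome (0.27 for chromosome 11 and -0.36 for chromosome 6) entered as an offset, neither Vamp2 nor Vamp5 passed. Vamp3, the cellubrevin of recycling endosomes, was 122, 123 and 111 CPM and then 136, 119 and 119 CPM, with overlapping groups and a log2 fold change of 0.07 ± 0.10. Vamp8, the most abundant VAMP per kb and the endosomal and apical R-SNARE, was 87.8, 80.8 and 67.3 CPM in 393P_vector and 64.8, 60.2 and 61.4 CPM in 393P_ZEB1. Its groups did not overlap, yet its log2 fold change of -0.34 ± 0.12 did not pass (adjusted p = 0.0648), passed at -0.44 (adjusted p = 0.00103) without 393P_vector replicate 3, and turned to 0.02 with the chromosome median as offset. Vamp1 fell short of the threshold at 1.06 ± 0.35 and 0.572 ± 0.123 CPM (SD, n = 3; adjusted p = 0.06), as did Vamp4. Vamp7 was listed at 0 in all samples, but its entry lies on an unplaced scaffold of chromosome X, and none of the 67 features on such scaffolds had a count, so it is not measured here.

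Among the syntaxin-binding proteins, Stxbp2 and Stxbp5 fell. Stxbp2 (Munc18-2), the epithelial partner of Stx3 and Stx11, was 92.4 ± 9.9 and 69.4 ± 3.2 CPM (SD, n = 3), and its log2 fold change was -0.41 ± 0.11 (adjusted p = 0.0226). Stxbp5 (tomosyn, chr10:9755547-9901040), which holds target SNAREs in an unproductive complex, was 37.1, 38.5 and 34.0 CPM in 393P_vector and 15.4, 16.3 and 13.7 CPM in 393P_ZEB1. All values of 393P_ZEB1 were lower, with a log2 fold change of -1.27 ± 0.12 (adjusted p = 0.000137), or -0.97 relative to the median of chromosome 10. Stxbp4 and Stxbp6 did not pass, at -0.11 and -0.24. Relative to the median of chromosome 11, which was 0.27, Stxbp4 was at -0.38, and it passed with the chromosome medians as offset. Stxbp3a, a Munc18 gene whose symbol lies outside the rule, did not pass either at 33.7 ± 3.0 and 37.5 ± 3.0 CPM (SD, n = 3).

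Of the 11 synaptotagmins tested, 5 were higher and 3 lower, and all 8 changed at least 2-fold. Among all tested genes 18.3% were higher and 19.3% lower, and 17.1% were called with a change of at least 2-fold. Of the lower genes, Syt8 and Syt9 had enough counts to be tested only through 393P_vector, so their calls are not independent of the filter. Syt7 (chr19:10389090-10453181), a calcium sensor of lysosomal and slow exocytosis, was 37.7, 37.3 and 39.5 CPM in 393P_vector and 107, 116 and 118 CPM in 393P_ZEB1, a log2 fold change of 1.58 ± 0.10 (adjusted p = 1.35e-05). Syt12 (chr19:4445908-4477143), a member that does not bind calcium, was 13.3, 12.8 and 12.5 CPM and then 46.6, 51.6 and 50.3 CPM, a log2 fold change of 1.94 ± 0.11 (adjusted p = 7.9e-06). For both, the spread within a group was small beside the gap between groups. A930001C03Rik lies antisense to 17.2% of the exon bases of Syt12 and other genes antisense to 5.13% of those of Syt7 and 14.5% of those of Syt4, and such reads cannot be told apart if strand was not used.

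Another 3 synaptotagmins rose from low levels. Syt4 (chr18:31437808-31447415), an immediate early gene of neurons, was 0.406, 0.425 and 0.337 CPM in 393P_vector and 1.66, 2.03 and 1.38 CPM in 393P_ZEB1. Its log2 fold change of 2.12 ± 0.25 (adjusted p = 0.000395) came from a chromosome whose median was 0.64, which leaves 1.48. Syt14 (chr1:192897307-193035698), which lacks calcium binding, was 0.459, 0.272 and 0.506 CPM and then 1.38, 1.53 and 1.65 CPM, a log2 fold change of 1.87 ± 0.27 (adjusted p = 0.00133). Syt13, a calcium-independent member known from endocrine cells, rose by 1.503 ± 0.27 (adjusted p = 0.00389) and stayed below 1 CPM throughout. In each of these genes all 393P_ZEB1 samples lay above all 393P_vector samples, as they did in 26.3% of all tested genes.

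Syt8, Syt9 and Syt17 fell. Syt8 (chr7:142434977-142440398), a member described in germ cells, was 3.85, 4.28 and 2.90 CPM in 393P_vector and 0.0187, 0.0900 and 0.164 CPM in 393P_ZEB1, which were 1, 5 and 10 reads. Its log2 fold change was -5.27 ± 0.46 (adjusted p = 8.88e-05), and the ratio of summed normalised counts, 393P_vector over 393P_ZEB1, was 38.1 with an exact 95% interval of 23.3 to 67.0. Syt9, a calcium sensor of dense-core vesicles, was below 1 CPM in every sample, at 0.759 ± 0.084 and 0.0715 ± 0.0222 CPM (SD, n = 3), the latter from 5, 4 and 3 reads. Its log2 fold change was -3.39 ± 0.33 (adjusted p = 0.000146), and the same ratio was 10.9 with an interval of 6.03 to 21.5. Syt17 (chr7:118381856-118443552), also called B/K protein, was 5.85, 6.51 and 5.10 CPM and then 2.08, 1.91 and 2.20 CPM, a log2 fold change of -1.50 ± 0.17 (adjusted p = 0.000332). All 3 lie on chromosome 7, whose median was -0.01.

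**Figure D3:**
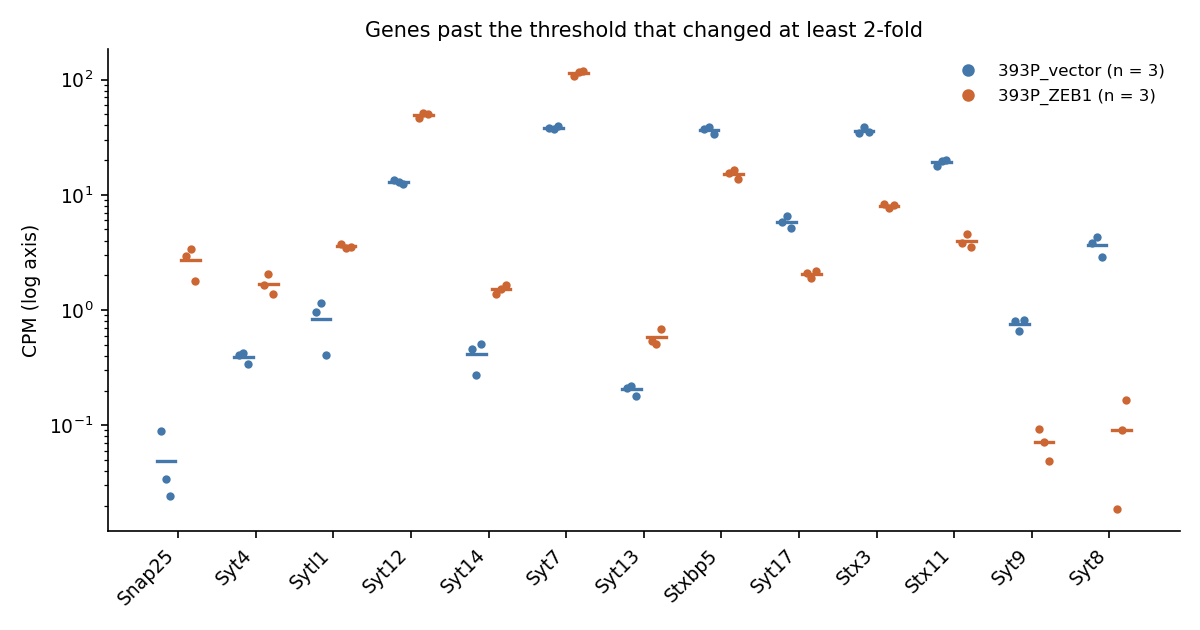
CPM (log y axis) in each sample of the 13 genes past the threshold with a change of at least 2-fold, ordered by log2 fold change, for 393P_vector (blue) and 393P_ZEB1 (orange), n = 3 each, with bars at the means. The genes were chosen for their change in these samples, and in all 13 the groups do not overlap, beside 52.8% of all tested genes. Syt7 is the most abundant, from a mean of 38.2 to 114 CPM.

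The make-up of the synaptotagmin mRNAs changed accordingly. The summed level over the 17 genes was 19.95, 20.5 and 18.3 CPM per kb in 393P_vector and 36.0, 38.8 and 39.2 CPM per kb in 393P_ZEB1. Syt7 and Syt12 made up 28.1% ± 2.6 and 20.1% ± 0.9 of it in 393P_vector, and 43.1% ± 0.3 and 39.8% ± 0.7 in 393P_ZEB1 (SD, n = 3). Syt17 made up 18.4% ± 1.2 and then 3.37% ± 0.28, and Syt8 12.5% ± 1.7 and then 0.156% ± 0.122. Syt11, a vesicle protein without calcium binding, did not pass at 13.4 ± 1.5 and 15.1 ± 0.7 CPM, so its share went from 15.01% to 8.73% with the rise of the sum. Syt5 and Syt16 did not pass, both below 1 CPM in all samples, with adjusted p = 0.0774 for Syt5. The sensors of fast release at synapses, Syt1 and Syt2, were not tested, nor were Syt3, Syt6, Syt10 and Syt15, and none of these 6 exceeded 0.357 CPM in any sample.

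**Figure D4:**
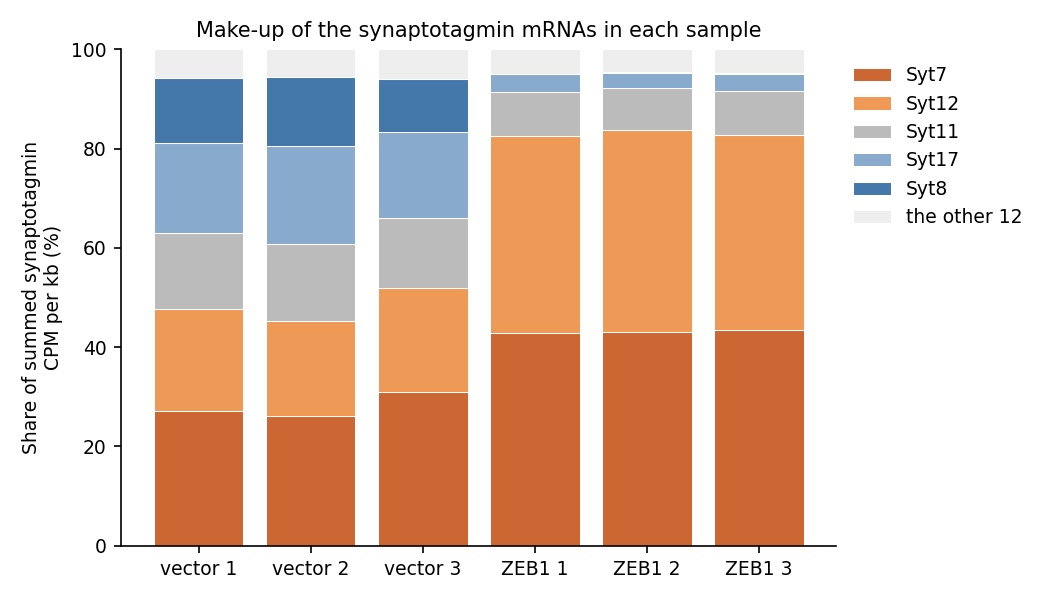
Share of the summed synaptotagmin level (y axis, % of CPM per kb) held by Syt7, Syt12, Syt11, Syt17, Syt8 and the other 12 genes in each of the 6 samples (x axis). Syt8 held 10.6% to 13.9% in 393P_vector samples and 0.0347% to 0.279% in 393P_ZEB1 samples, and Syt7 with Syt12 take up most of each 393P_ZEB1 bar.

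Synaptotagmin-like proteins bind Rab27 on vesicles and link them to the plasma membrane. Sytl1 (Slp1, chr4:133253090-133263087) was 0.954, 1.16 and 0.409 CPM in 393P_vector and 3.78, 3.47 and 3.54 CPM in 393P_ZEB1. Its values lay apart in the 2 groups, with a log2 fold change of 2.12 ± 0.35 (adjusted p = 0.00252), and the lowest value was that of 393P_vector replicate 3. Sytl2 (Slp2) was 42.4 ± 2.4 and 70.7 ± 2.6 CPM (SD, n = 3), a rise of 0.74 ± 0.10 (adjusted p = 0.000949). Sytl5 was 24.95, 21.9 and 22.5 CPM and then 24.4, 20.3 and 21.5 CPM, with overlapping groups and a log2 fold change of -0.07 ± 0.12. Sytl3 and Sytl4 were not tested, at no more than 0.162 CPM in any sample.

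Calls among the exocyst genes went in both directions, but with the chromosome medians as offset only Exoc2 and Exoc5 passed, both higher. The 9 core genes count the alternative subunits Exoc6 and Exoc6b apart. Without the offset Exoc2, Exoc3 and Exoc7 were higher, Exoc4 and Exoc6b lower, and Exoc1, Exoc5, Exoc6 and Exoc8 did not pass. Among all tested genes 37.6% passed. The median log2 fold change of the 9 genes was 0.26, and that of all tested genes -0.02. Exoc2 (Sec5), a Ral effector, was 59.5, 56.0 and 67.6 CPM in 393P_vector and 87.96, 86.3 and 87.0 CPM in 393P_ZEB1, a rise of 0.51 ± 0.11 (adjusted p = 0.00721). Exoc3 (Sec6) was 86.7, 86.2 and 73.9 CPM and then 108, 105 and 102 CPM, a rise of 0.35 ± 0.10 (adjusted p = 0.0319). Exoc7 (Exo70), which binds the plasma membrane, was 42.8, 45.6 and 24.4 CPM and then 63.5, 58.9 and 57.2 CPM, a rise of 0.67 ± 0.22 (adjusted p = 0.0486), with 393P_vector replicate 3 again lowest.

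Exoc4 (Sec8) was 71.9, 77.7 and 78.8 CPM in 393P_vector and 52.8, 54.9 and 52.7 CPM in 393P_ZEB1, a log2 fold change of -0.51 ± 0.10 (adjusted p = 0.00468). Exoc6b, 1 of the 2 forms of Sec15, was 94.3, 88.2 and 110.4 CPM and then 65.4, 66.4 and 63.8 CPM, a log2 fold change of -0.58 ± 0.11 (adjusted p = 0.00539). Both are on chromosome 6, whose median was -0.36, and with the chromosome medians as offset neither passed. Exoc3, on chromosome 13 with a median of 0.13, did not pass with this offset (adjusted p = 0.16), nor did Exoc7, on chromosome 11 with a median of 0.27 (adjusted p = 0.212). The same offset brought Exoc5, on chromosome 14 with a median of -0.26, to a log2 fold change of 0.52 that passed (adjusted p = 0.029). The part of the chromosome shifts in these calls was not tested.

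Without the offset the other 4 subunits did not pass, and of these only Exoc8 had groups that did not overlap. Exoc5 (Sec10), the most abundant exocyst gene per kb, was 126, 115 and 137 CPM in 393P_vector and 182, 134 and 137 CPM in 393P_ZEB1, and its high value in 393P_ZEB1 replicate 1 stood alone (log2 fold change 0.26 ± 0.15, adjusted p = 0.197). Exoc1 (Sec3) was 60.0, 60.1 and 51.5 CPM and then 61.9, 63.6 and 57.3 CPM. Exoc6 was 47.9, 45.7 and 61.1 CPM and then 57.4, 61.8 and 55.8 CPM. Exoc8 (Exo84), the other Ral effector, was 86.9, 85.8 and 67.3 CPM and then 99.96, 91.4 and 98.6 CPM, apart but short of the threshold (adjusted p = 0.127). Exoc3l, a relative of Exoc3, did not pass at 1.22 ± 0.61 and 1.33 ± 0.29 CPM (SD, n = 3).

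**Figure D5:**
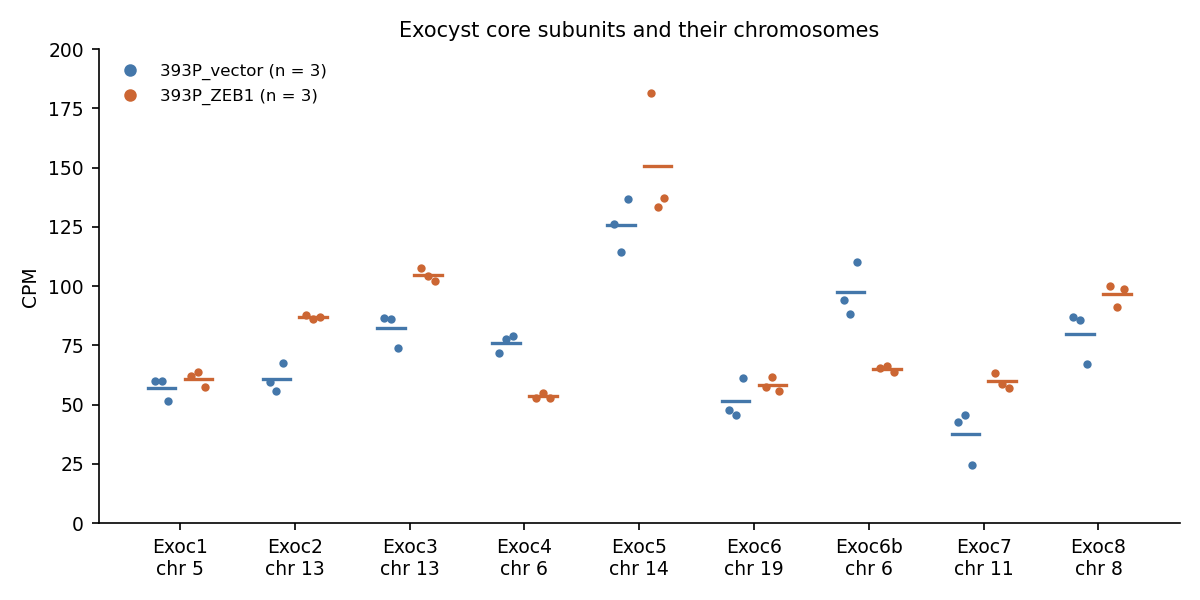
CPM (y axis, from 0) of the 9 exocyst core genes in each sample of 393P_vector (blue) and 393P_ZEB1 (orange), n = 3 each, with bars at the means and the chromosome under each name. Exoc2, Exoc3 and Exoc7 lie higher in 393P_ZEB1 and Exoc4 and Exoc6b, both of chromosome 6, lower.

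Partner genes of the same machinery that the rule does not match also changed in both directions. Of 58 genes named, 48 were tested, 15 were higher and 8 lower, beside 18.3% higher and 19.3% lower among all genes tested, and their median log2 fold change was 0.03. The 15 tested genes of priming, clamping and calcium sensing gave 5 in each direction. Cplx2, a complexin that clamps and promotes fusion by SNARE complexes, went from 0.903 to 14.6 CPM, a log2 fold change of 4.02 ± 0.21. Unc13c rose by 1.43 ± 0.12, whereas its relatives Unc13d (Munc13-4, the Rab27 effector) and Unc13b gave -1.49 ± 0.18 and -0.98 ± 0.15, and the membrane repair gene Dysf gave -2.75 ± 0.27. Of 9 exocyst partners, 4 were higher, among them both Ral GTPases (Rala by 0.88 ± 0.16 and Ralb by 0.39 ± 0.11), and 2 were lower. The other higher genes were Tnfaip2 (1.14 ± 0.17) and Rab8b (0.64 ± 0.14). The lower genes were Rhoq (-0.76 ± 0.18) and Exoc3l4, whose fall from a mean of 1.37 to 0.2445 CPM (-2.47 ± 0.25) was the largest change among these partners. Of 10 other SNAREs, Gosr1 rose by 0.47 ± 0.10 and Vti1a fell by 0.81 on the log2 scale, with an SE of 0.10. The secretory Rabs gave 2 higher (Rab3b and Rab3d) and none lower of 6 tested, and the disassembly factors 2 higher of 4, of which Napg lies on chromosome 18.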

How the data were processed

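Total RNA of 6 samples, 3 of 393P_vector and 3 of 393P_ZEB1, was sequenced (SOLiD). For each sample the authors deposited the unnormalised count of reads on each of 24214 features, and an RPKM, the count scaled by exon length and library, which was not used further. Coordinates are those of GRCm38; the aligner, the counter and its strand setting are not given in the sources used here. The counts were fitted in R 4.3.3 with edgeR 4.0.16 (TMM, filterByExpr with a minimum count of 10, robust quasi-likelihood, no replicate block), with Benjamini-Hochberg adjustment of p. CPM used the TMM-normalised library sizes, CPM per kb the deposited exon length, and SE is the absolute log2 fold change over the square root of F. Alternatives were DESeq2 1.42.0, other scalings and filters, a replicate block, leaving out each sample, stricter thresholds and the chromosome median as offset. On 5 simulated sets of the comparison, over 13902 to 13916 genes, edgeR recovered 96.5% of changed genes with 6.39% false calls. Each set had 200 genes changed by 2-fold and a single dispersion of 0.02. In the data 37.6% of tested genes were called, many of them with smaller changes, so these rates do not carry over to the calls reported here. Exact intervals at 95% used SciPy and cover counting error only. Genes named with a value per sample were those called with at least 2-fold change and 1 CPM, Snap25, Syt4 and Syt12, the most abundant member of each family, surface SNAREs and exocyst subunits. The genes, lists and rules were chosen with earlier results of these data known. Some items are not reported here.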

Additional observations from a re-analysis of the deposited data

How the results depend on the processing

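The counts of called genes moved by more than 1.5 times under 1 alternative, a test against a fold change of 1.5, which left 13 of the 28 calls, 7 higher and 6 lower. These 13 were the genes changed at least 2-fold, and each kept its call in every setting in which it was tested; the filter of at least 10 counts in every sample left Snap25, Syt8 and Syt9 untested. Leaving out 1 sample at a time gave 20 to 34 calls, the 20 without 393P_ZEB1 replicate 1 and the 34 without 393P_vector replicate 3, which added Exoc6, Snap29, Syt5, Vamp1, Vamp4 and Vamp8. The chromosome median as offset gave 24 calls, 22 of them shared, and a log2 fold change of 0.63 for Zeb1, which lies on chromosome 18, in place of 1.26. Vamp8 went to 0.0167 with that offset, and Snap23 lay between -0.0179 and 0.177 when 1 sample was left out, negative without 393P_ZEB1 replicate 1, and neither passed the threshold. Replicate numbers are alike in both groups, but the labels do not say what they mark, so the numbers were not taken as pairs. Deviations from the group means correlated at -0.205 to 0.279 for equal numbers and at -0.182 to 0.222 for unequal ones. With 3 samples a group these correlations depend on each other and cannot decide whether the samples were paired. With a replicate block the log2 fold change was 1.26 for Zeb1 and 5.78 for Snap25, and 22 genes were called, without Exoc3, Stx12, Stx1a, Stx5a, Stxbp2 and Vamp2. With CAGGTG alone, 26.5% of the 49 genes with a promoter window held an E-box, beside 21.1% of tested genes. The cause of these changes was not tested. Depth limits the genes near 3 counts, Snap25 in 393P_vector and Syt8 and Syt9 in 393P_ZEB1, and the 10 untested genes that had counts.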
